A study of Mus musculus with 12 samples.

Results

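Granule exocytosis is the release of stored granule contents, and 10 genes of its machinery were followed across mouse cultures labelled as mast cells: Vamp8, Vamp7, Vamp3, Stx3, Snap23, Stxbp2, Unc13d, Rab27a, Rab27b and Cd63. They were read from probe sets that the platform annotation assigns to exactly 1 gene symbol. Each of the 10 genes had 1 such probe set, out of 19938 genes measured that way. Values are log2 signals, so a difference of 1 is a 2-fold difference, and changed, rose or fell means an adjusted p under 0.05 in limma with Benjamini-Hochberg adjustment over the 19938 genes.

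Mast cells keep histamine, proteases and proteoglycans in secretory granules and release them when IgE receptors are cross-linked. In the textbook account, Rab27 GTPases bring granules to the plasma membrane, Munc13-4 (Unc13d) tethers and primes them, and Munc18-2 (Stxbp2) chaperones syntaxins. SNARE proteins then fuse the membranes: a VAMP on the granule pairs with a syntaxin and SNAP-23 on the target membrane. The tetraspanin CD63 sits in the granule membrane and appears at the cell surface when granules fuse.

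Per the labels, the 12 arrays measure bone marrow derived mast cells, grown from marrow with stem cell factor at 12.5 ng/ml and interleukin 3 at 10 ng/ml. There were 4 groups of 3 arrays: wild type C57BL/6 at 2 weeks and at 10 weeks of culture, and ACKR2-/- (also written D6-/-) on the C57BL/6 strain at 2 and at 10 weeks. ACKR2 is an atypical chemokine receptor that takes up inflammatory CC chemokines. Donors in every group were females aged 4 to 6 weeks per the labels, which call the arrays biological replicates and tie none to an animal or flask, so p-values measure the spread between these samples. Some 2-week cultures were purified on CD117, the Kit protein, and the labels do not say which. The labels call the cultures homogeneous after 4 weeks. The deletion in the ACKR2-/- mice is not described in the sources used here, and Ackr2 itself read from 7.88 to 8.38 on the wild type arrays and from 7.79 to 9.43 on the ACKR2-deficient arrays.

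On 4 arrays the transcripts went against the labels: wild type 2-week array 3 and all 3 ACKR2-deficient 2-week arrays. Xist, of the inactive X chromosome, read at most 6.23 there and at least 13 on the other 8 arrays, and the Y-linked Kdm5d at least 10.06 and at most 6.42. The 9 measured mast cell markers averaged 6.60 to 6.75 on these 4 arrays and 12.9 to 13.16 on the other 8, and all 9 were lower on each of the 4. Of the defining ones, Fcer1a read 4.83 to 5.47 and Kit 7.51 to 9.18 on the 4 arrays. B cell markers (7 measured of 8 listed) averaged 9.85 to 12.78 against 6.49 to 6.97, T and NK cell markers (9 of 10) 8.85 to 11.54 against 6.9 to 7.7, and dendritic cell markers (all 6) 8.24 to 9.49 against 7.01 to 7.67. The labelled cell type is thus borne out by its markers on 8 arrays and not on these 4. Markers of other cells also read high on some of the 8. Basophil markers (3 of 3) averaged 7.10 to 11.09 there, with 10.74 and 10.78 on wild type 2-week arrays 1 and 2. Every comparison with a 2-week group rests on some or all of the 4 arrays that go against their labels. Groups are named by their labels throughout.

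Of the 10 exocytosis genes, 9 read lower on each of the 4 arrays than on any of the other 8, and none read higher. Over all genes, 15% were lower and 11.8% higher in that way. The lymphocyte and mast cell markers move with the same arrays, and their part in these readings was not tested. In bulk RNA, fewer cells of a type and less RNA per cell cannot be told apart.

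**Figure D1:**
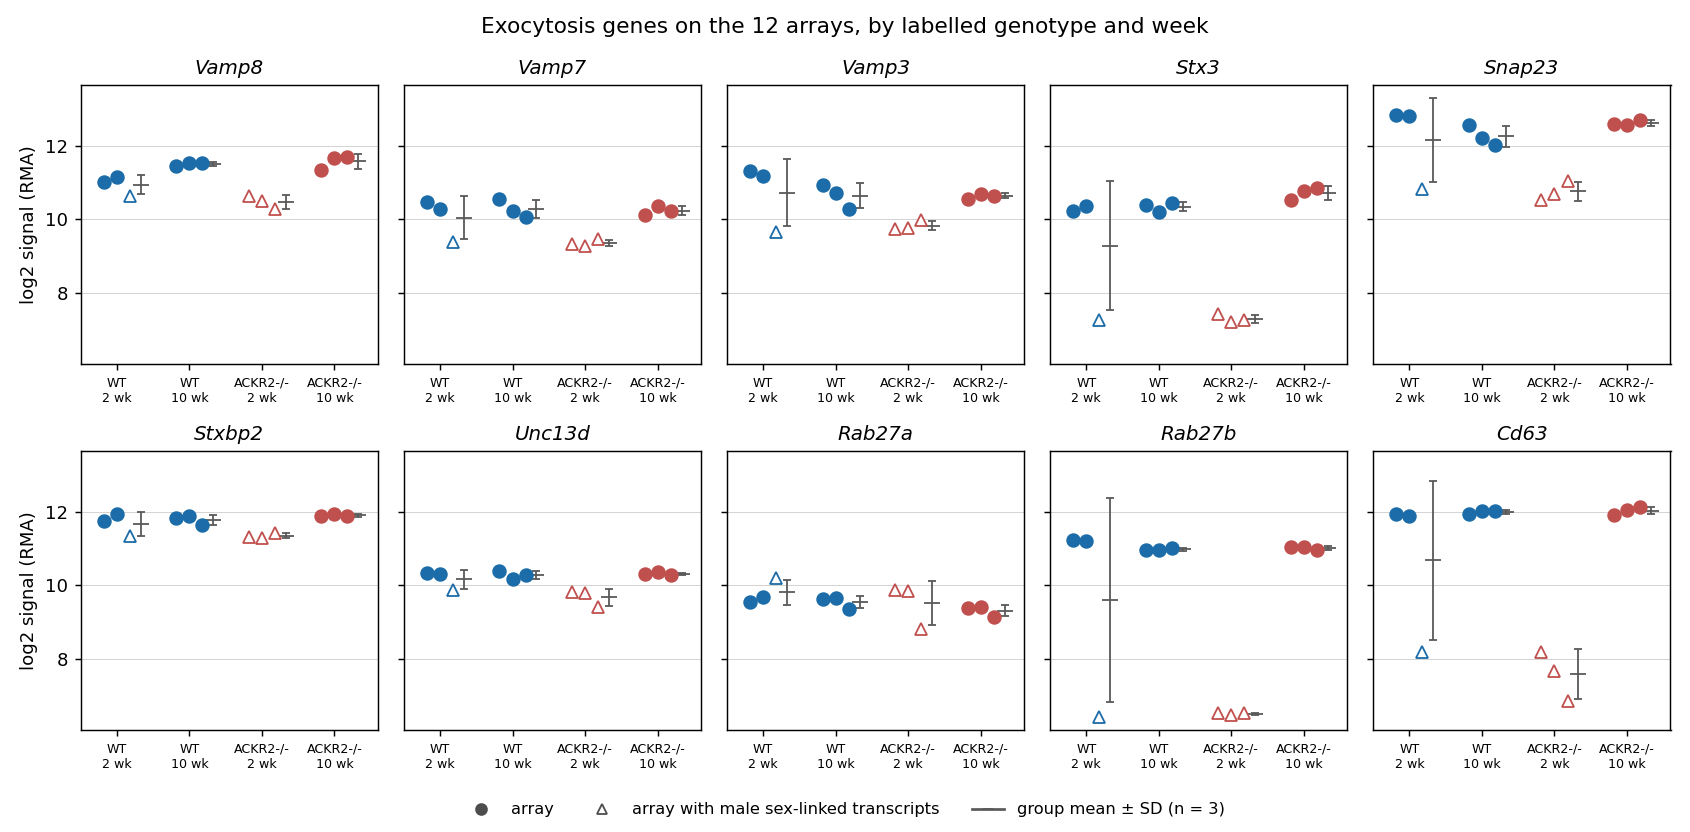
Log2 signal (vertical axis) of the 10 exocytosis genes on each array, by labelled genotype and week (horizontal axis). Open triangles are the 4 arrays with low Xist and high Kdm5d, and bars to the right of the points are group means with SD over 3 arrays. The triangles lie below every other array for 9 genes, by the widest gap for Rab27b (6.41 to 6.53 against 10.95 to 11.22), and on both sides of the other arrays for Rab27a.

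RefSeq promoter sequence (build GRCm38.p6) is reported here for 6 of the 10 genes, and Rab27b is not among them. Shown are the 250 bases before the annotated start of Cd63, Stx3 and Snap23, which had the largest gaps between arrays among those 6, and of both annotated starts of Rab27a, the gene that did not follow them. Each reads 5′ to 3′ on the gene's strand, and capitals mark a match on either strand to 4 motifs: the E-box CACGTG, the E-box variant CATGTG, the GATA-type motif AGATAA, and the STAT-type motif TTCNNNGAA. The positions are chr10:128909095-128909344 (plus strand) for Cd63, chr19:11819404-11819653 (minus strand) for Stx3, chr2:120567421-120567670 (plus strand) for Snap23, and chr9:73044560-73044809 and chr9:73063898-73064147 (both plus strand) for Rab27a.
Cd63: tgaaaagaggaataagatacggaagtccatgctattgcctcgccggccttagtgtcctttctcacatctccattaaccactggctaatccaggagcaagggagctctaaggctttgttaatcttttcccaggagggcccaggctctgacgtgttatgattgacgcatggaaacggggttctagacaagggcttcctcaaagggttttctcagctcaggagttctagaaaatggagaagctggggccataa
Stx3: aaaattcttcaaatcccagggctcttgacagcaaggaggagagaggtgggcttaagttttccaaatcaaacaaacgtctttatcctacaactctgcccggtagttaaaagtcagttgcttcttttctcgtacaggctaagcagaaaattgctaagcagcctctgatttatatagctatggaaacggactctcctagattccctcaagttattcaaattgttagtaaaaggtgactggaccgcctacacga
Snap23: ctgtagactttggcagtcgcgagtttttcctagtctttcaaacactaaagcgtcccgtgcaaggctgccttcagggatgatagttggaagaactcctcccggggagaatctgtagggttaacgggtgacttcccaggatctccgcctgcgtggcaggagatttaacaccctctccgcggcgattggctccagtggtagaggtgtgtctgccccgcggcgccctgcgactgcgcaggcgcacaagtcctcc
Rab27a, first start: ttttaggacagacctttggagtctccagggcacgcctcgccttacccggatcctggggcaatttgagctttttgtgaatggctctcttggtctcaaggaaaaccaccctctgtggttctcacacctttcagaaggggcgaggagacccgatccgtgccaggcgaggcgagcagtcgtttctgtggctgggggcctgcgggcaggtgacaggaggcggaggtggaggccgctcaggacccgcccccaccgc
Rab27a, second start: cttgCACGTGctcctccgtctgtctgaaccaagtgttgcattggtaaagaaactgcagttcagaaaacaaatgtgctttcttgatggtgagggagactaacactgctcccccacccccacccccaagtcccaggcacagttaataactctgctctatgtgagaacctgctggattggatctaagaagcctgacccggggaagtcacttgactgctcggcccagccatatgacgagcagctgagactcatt
Of these 5 windows, the second Rab27a window alone held a match, CACGTG at 246 bases before the start. Of the remaining entries, Stxbp2 held CACGTG at 14 bases before its start and Vamp8 held TTCTTTGAA at 121 bases before. Among 32851 windows of the same length in the table, 6.0% held CACGTG, 12.3% CATGTG, 10.0% AGATAA and 7.0% TTCNNNGAA. These are matches of letters only.

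Cd63, the granule tetraspanin, had the widest span of the 10 genes. It read 11.95, 11.89 and 8.19 on wild type 2-week arrays 1 to 3, whereas ACKR2-deficient arrays 1 to 3 of the same week gave 8.20, 7.68 and 6.85. At 10 weeks it read 11.93, 12.02 and 12.03 in wild type and 11.92, 12.04 and 12.13 in ACKR2-deficient cells. The 8 arrays with mast cell transcripts lay within 0.23 of each other. The 4 low arrays spread over 1.35, the lowest being ACKR2-deficient 2-week array 3, where the B cell markers averaged 12.78 and the T and NK cell markers 8.85, beside at most 10.01 and at least 11.5 on the other 3.

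The 2 Rab27 genes ordered the arrays differently. Rab27b, the form whose loss is known to impair mast cell granule release, read 11.22, 11.21 and 6.41 on the wild type 2-week arrays and 6.53, 6.47 and 6.53 on the ACKR2-deficient ones. At 10 weeks it read 10.96, 10.95 and 11.02 in wild type and 11.03, 11.05 and 10.95 in ACKR2-deficient cells. Its 4 low readings span 0.12, as narrow as any member's on those arrays.

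Rab27a, which serves granule release in cytotoxic lymphocytes and melanosome transport in pigment cells, overlapped between the 2 sets of arrays. It read 9.56, 9.69 and 10.20 on the wild type 2-week arrays and 9.88, 9.86 and 8.82 on the ACKR2-deficient ones. At 10 weeks it read 9.64, 9.65 and 9.37 in wild type and 9.38, 9.41 and 9.13 in ACKR2-deficient cells. The 3 highest readings and the lowest were all on the 4 arrays without mast cell transcripts, and the lowest was again ACKR2-deficient 2-week array 3. The log2 difference between Rab27b and Rab27a within an array was 4.71 higher at 10 than at 2 weeks in the ACKR2-deficient groups, where an exact 2-sided permutation test gave p = 0.1, the smallest that 3 against 3 arrays allow (0.4 adjusted over 4 such comparisons). In the wild type groups the same shift was 1.63 (exact permutation p = 0.9).

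Among the target-membrane SNAREs, Stx3 separated the arrays most. Syntaxin 3 has been placed on mast cell granule and plasma membranes. It read 10.23, 10.37 and 7.28 on the wild type 2-week arrays and 7.42, 7.20 and 7.28 on the ACKR2-deficient ones. At 10 weeks it read 10.40, 10.20 and 10.46 in wild type and 10.52, 10.76 and 10.86 in ACKR2-deficient cells, so that the 10-week genotypes did not overlap. Snap23, the widely expressed SNAP-25 relative of non-neuronal cells, read 12.83, 12.82 and 10.82, then 10.54, 10.69 and 11.05, at 2 weeks in wild type and ACKR2-deficient cells. Its 10-week values were 12.57, 12.21 and 12.01 in wild type and 12.59, 12.57 and 12.71 in ACKR2-deficient cells, where wild type array 1 and the lowest ACKR2-deficient array both round to 12.57.

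The VAMPs spanned less. Vamp8, a VAMP with a role in mast cell granule release, read 11.02, 11.15 and 10.65 at 2 weeks in wild type and 10.65, 10.49 and 10.28 in ACKR2-deficient cells. At 10 weeks it read 11.44, 11.54 and 11.54 in wild type and 11.34, 11.68 and 11.71 in ACKR2-deficient cells. Vamp8 was the 1 SNARE among the members for which all 6 arrays of 10 weeks were also above the 2 wild type 2-week arrays with mast cell transcripts. Vamp7, a VAMP of late endosomes and lysosomes, read 9.29 to 9.46 on the 4 arrays and 10.06 to 10.56 on the other 8. Vamp3, or cellubrevin, a VAMP of recycling endosomes, read 9.67 to 9.98 against 10.29 to 11.32, and its 2 highest readings, 11.32 and 11.17, were wild type 2-week arrays 1 and 2.

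The tethering and chaperone genes had the narrowest spans. Stxbp2, whose product holds syntaxins ready for fusion, read 11.30 to 11.42 on the 4 arrays and 11.64 to 11.95 on the other 8, a gap of 0.22. Unc13d, whose product is a Rab27 effector, read 9.41 to 9.87 against 10.18 to 10.39, a gap of 0.31. Loss of either human gene is a known cause of familial haemophagocytic lymphohistiocytosis, in which lymphocyte granules fail to be released. Over all 12 arrays, the range of Stxbp2 was 0.66 and 59.5% of genes had a wider one. For Cd63, Rab27b and Stx3 the ranges were 5.27, 4.81 and 3.66, and only 0.9%, 1.4% and 3.1% of genes had a wider one.

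From 2 to 10 weeks, 8 of the 10 genes rose in ACKR2-deficient arrays and none fell. Limma called 16.8% of all genes in this comparison, 10.5% higher and 6.33% lower. Rab27b rose from 6.51 ± 0.03 to 11.01 ± 0.05 (SD, n = 3), a log2 difference of 4.50 ± 1.00 (SE) or 22.6-fold, with a limma adjusted p of 0.0160. Cd63 rose by 4.45 ± 0.81 (21.9-fold), Stx3 by 3.42 ± 0.64 (10.7-fold), Snap23 by 1.86 ± 0.44 (3.63-fold) and Vamp8 by 1.11 ± 0.16 (2.16-fold). Smaller rises were those of Vamp7 (0.88 ± 0.25), Unc13d (0.64 ± 0.15) and Stxbp2 (0.56 ± 0.15), and the limma adjusted p of the 8 genes lay between 0.0137 and 0.0351. The errors pool the spread of all groups, including the wild type 2-week group with its divergent array. Vamp3 differed by 0.81 ± 0.36 (limma adjusted p = 0.161) although its arrays did not overlap, and Rab27a by -0.22 ± 0.27 (0.663). In all, 9 of the 10 genes had no overlap between the 2 groups, all higher at 10 weeks, as did 26.7% of all genes in that direction. At an unadjusted p under 0.05 limma counted 9 of the 10 and 30.2% of all genes. The median log2 difference of the 10 genes was 0.99, beside 0.058 over all genes.

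These calls depend on single arrays. Without ACKR2-deficient 10-week array 2 or array 3, limma called 0 genes, with 4783 and 4829 genes at an unadjusted p under 0.05, and the adjusted p of the 8 exocytosis genes lay between 0.0555 and 0.119 or between 0.0584 and 0.0989. Without ACKR2-deficient 2-week array 1 the members called were 5, with 1514 genes in all, and without array 2 they were 4, with 1391 in all. All 3 of the 2-week arrays of this comparison are among the 4 that go against their labels, and none of the 3 10-week arrays is. Culture time and what else separates these arrays cannot be told apart.

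In the arrays labelled wild type no exocytosis gene passed between 2 and 10 weeks, and neither did any other gene. At an unadjusted p under 0.05 limma counted 6.65% of all genes and 1 of the 10, Vamp8, at 0.57 ± 0.16 (adjusted p = 0.668). Vamp8 was also the 1 member whose arrays did not overlap, beside 5.29% of all genes higher and 3.45% lower without overlap. Rab27b differed by 1.37 ± 1.00, Cd63 by 1.31 ± 0.81 and Stx3 by 1.06 ± 0.64. Without wild type 2-week array 3 and the other 3 that go against their labels, these differences were -0.23 ± 0.10, 0.07 ± 0.11 and 0.05 ± 0.14. Limma then called 0 genes again, while 7.14% of all genes and 3 members had an unadjusted p under 0.05: Vamp8 at 0.42 ± 0.14, Vamp3 at -0.60 ± 0.18 and Snap23 at -0.56 ± 0.17 (adjusted p = 0.603, 0.595 and 0.592). Vamp3 and Snap23 were thus lower, and Vamp8 higher, on average at 10 weeks among the wild type arrays with mast cell transcripts, none past the threshold. The intervals of these 3 differences were 0.10 to 0.75, -1.01 to -0.18 and -0.94 to -0.18 (95%, unadjusted).

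**Figure D2:**
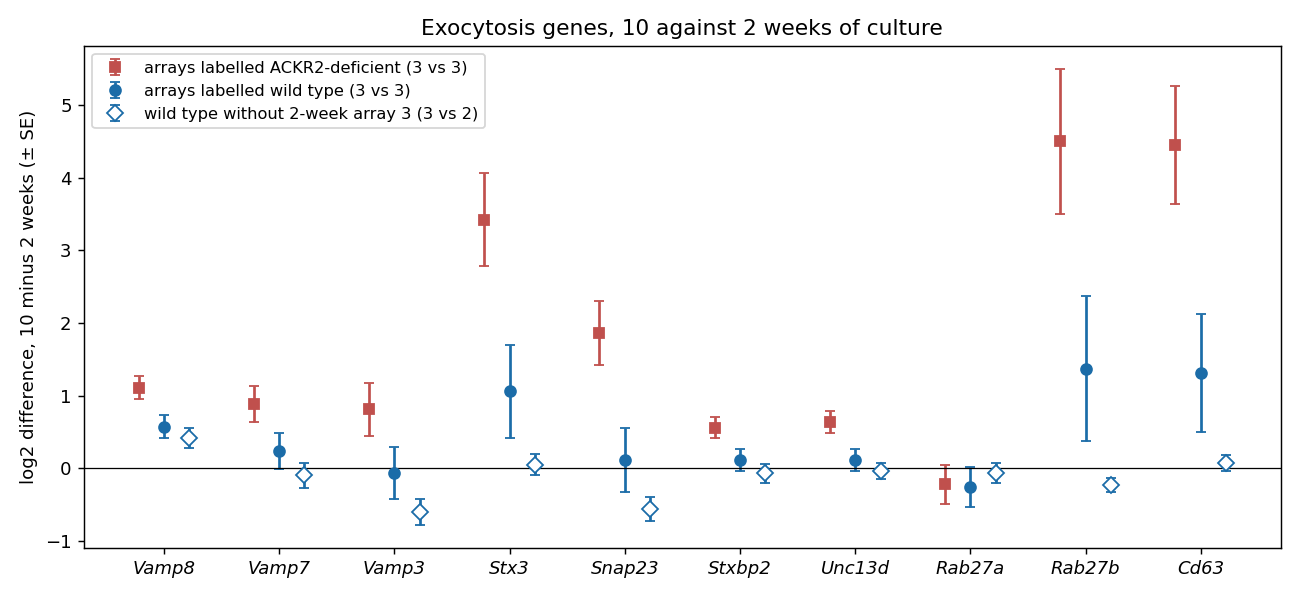
Log2 difference between 10 and 2 weeks (vertical axis, with limma's SE) for each exocytosis gene, in the arrays labelled ACKR2-deficient (squares), in those labelled wild type (circles), and in wild type without 2-week array 3, from the fit without the 4 arrays that go against their labels (open diamonds). Rab27b lies at 4.50, 1.37 and -0.23 in these 3, and Rab27a at -0.22, -0.26 and -0.07.

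The difference between these 2 time effects, the genotype by week interaction, was above 0 for all 10 genes, beside 53.4% of all genes, and passed for none. Its largest values were 3.14 ± 1.15 for Cd63, 3.13 ± 1.41 for Rab27b and 2.36 ± 0.90 for Stx3, and its smallest was 0.04 ± 0.38 for Rab27a, a sign that turned under several alternatives. Limma called 0 genes, with 11.4% of all genes and 6 of the 10 members at an unadjusted p under 0.05. Without wild type 2-week array 3 it called 3138 of the 19938 genes and 9 of the 10 members, Rab27a being the exception. In that fit the ACKR2-deficient 2-week arrays alone lack mast cell transcripts. The interaction and what else separates these arrays cannot be told apart. Without ACKR2-deficient 10-week array 1 limma called 29 genes and no member.

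At 2 weeks the ACKR2-deficient mean was below the wild type mean for all 10 genes, and none passed. Over all genes, it was above the wild type mean for 45.4%. Limma called 0 of all genes, with 17.5% of all genes and 9 of the 10 members at an unadjusted p under 0.05. Cd63 and Rab27b differed by -3.10 ± 0.81 and -3.10 ± 1.00, Stx3 by -1.99 ± 0.64 and Snap23 by -1.40 ± 0.44, each with a limma adjusted p of 0.225. Only Vamp8 (-0.47 ± 0.16) and Unc13d (-0.49 ± 0.15) had no overlap between the groups, beside 8.6% of all genes lower and 4.97% higher without overlap. The nearest Vamp8 arrays of the 2 groups both round to 10.65. For the other 8 genes wild type 2-week array 3 lay within or below the ACKR2-deficient range, or, for Rab27a, the ranges crossed. Without that array limma called 4738 of the 19938 genes and 9 of the 10 members, with Rab27b at -4.70 and Cd63 at -4.34. That fit sets wild type 2-week arrays with mast cell transcripts against ACKR2-deficient arrays without them. Genotype and what else separates these arrays cannot be told apart. Rab27a, at -0.29 ± 0.27, took the opposite sign (0.056) without ACKR2-deficient 2-week array 3.

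At 10 weeks the genotypes were compared on 6 arrays that all carried mast cell transcripts and female sex-linked transcripts. No exocytosis gene passed, and 7 of the 10 differences were above 0, beside 51.6% over all genes. The median was 0.04, beside 0.008 over all genes. Limma called 0 genes, with 7.85% of all genes and none of the 10 members at an unadjusted p under 0.05. Stx3 and Snap23 had the largest differences, 0.36 ± 0.64 and 0.36 ± 0.44, and Rab27a had -0.25 ± 0.27. The errors here include the wild type 2-week spread. Fitted without the 4 arrays that go against their labels, the same differences carried smaller errors: 0.36 ± 0.13 for Stx3, 0.36 ± 0.15 for Snap23 and -0.25 ± 0.13 for Rab27a (limma adjusted p = 0.304, 0.363 and 0.471). In that fit limma again called 0 genes, with 12.9% of all genes and 2 members, Stx3 and Snap23, at an unadjusted p under 0.05.

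Stx3 was the 1 member with no overlap between the genotypes at 10 weeks, beside 8.61% of all genes higher without overlap. Without the 4 arrays, the unadjusted 95% interval of the log2 difference ran from 0.07 to 0.66 for Stx3 and from 0.02 to 0.70 for Snap23, both above 0 although neither passed after adjustment. It ran from -0.54 to 0.05 for Rab27a. For the other 7 genes it ran from -0.18 to 0.24 for Rab27b, from -0.19 to 0.27 for Cd63, from -0.20 to 0.26 for Unc13d, from -0.22 to 0.36 for Vamp8, from -0.13 to 0.38 for Stxbp2, from -0.40 to 0.29 for Vamp7 and from -0.38 to 0.36 for Vamp3. Markers of other cells also differed among these 6 arrays, and their averages were not tested between genotypes. Basophil markers (3 of 3 measured) averaged 10.36, 7.29 and 7.10 on ACKR2-deficient arrays 1 to 3 and 10.89 to 11.09 in wild type, and monocyte and macrophage markers (7 of 9) 10.46, 7.44 and 8.02 against 9.54 to 10.81. Neutrophil markers (8 of 8) averaged 6.72 to 7.44 against 7.70 to 10.53. Stx3 was highest on the same ACKR2-deficient arrays 2 and 3, and the part of other cells in these values was not tested. Mast cell markers averaged 12.9 to 13.16 and 12.92 to 13.13 in the 2 genotypes.

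**Figure D3:**
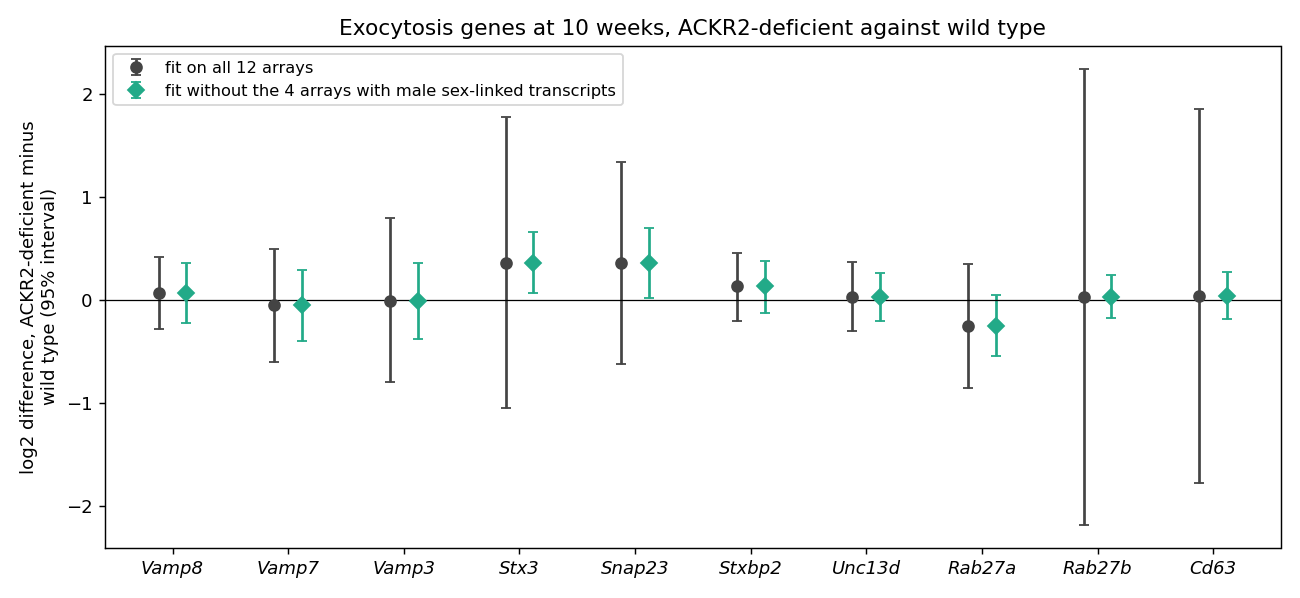
Log2 difference between ACKR2-deficient and wild type arrays at 10 weeks (vertical axis, with 95% intervals from limma) for each exocytosis gene, from the fit on all 12 arrays (circles) and from the fit without the 4 arrays that go against their labels (diamonds). Stx3 and Snap23 stand at 0.36 in both fits, and the interval of Rab27b narrows from between -2.18 and 2.24 to between -0.18 and 0.24.

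The 6 companion lists placed the 10 genes beside 96 measured of 100 listed genes of the same process. Between 2 and 10 weeks in the ACKR2-deficient groups 19 of the 96 rose and 3 fell, with a median of 0.23, beside the 10.5% and 6.33% of all genes. Of 23 other SNAREs 4 rose, the largest 3 being Stx11, a syntaxin of lymphocyte granule release, by 0.80 ± 0.21, Sec22b, a SNARE between endoplasmic reticulum and Golgi, by 0.59 ± 0.15, and Stx4a, a plasma membrane syntaxin, by 0.52 ± 0.14. Vamp1, a VAMP of neurons, was the 1 that fell, by 1.43. It read 9.93 to 10.13 on the 4 arrays that go against their labels and 8.14 to 8.67 on the other 8, opposite to the 3 VAMPs among the members.

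Of 12 SNARE partners 2 rose, Stxbp5 (tomosyn, which binds syntaxins in place of a VAMP) by 2.58 ± 0.55 and Napb, which helps to take SNARE complexes apart, by 0.71 ± 0.15. Of 18 calcium-sensing and priming genes 4 rose and none fell. The largest were Unc13b (2.18 ± 0.54), a relative of Unc13d known from synapses, Cadps2 (1.52 ± 0.29), a priming factor of dense-core vesicles, and Syt5 (1.43 ± 0.30), a synaptotagmin. Unc13b read 6.98 to 7.08 on the 4 arrays and 8.67 to 9.74 on the others, a wider separation than that of Unc13d. Syt5 read 7.87, 9.03 and 8.91 on ACKR2-deficient 10-week arrays 1 to 3 and 7.09 to 7.31 on the 2-week ones. Napb (6.25 to 7.11) and Cadps2 (5.87 to 7.61) read below the lowest array median, 7.76, on all 12 arrays. Without detection calls, their rises are between low signals.

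Of 22 Rab27 and Rab3 effectors and transport genes 3 rose: Sytl3, which binds Rab27, by 2.18 ± 0.53, Rab37, a Rab of mast cell granules, by 2.02 ± 0.44, and Rab3d, a Rab of secretory granules, by 1.72 ± 0.39. Rims3 fell by 0.52. Of 13 other tetraspanins and LAMPs 6 rose, among them Cd9 by 2.39 ± 0.43, the lysosomal membrane gene Lamp2 by 1.46 ± 0.38 and Cd151 by 1.39 ± 0.23. Tspan32 fell by 2.42. It read 10.31, 7.07 and 8.18 on ACKR2-deficient 10-week arrays 1 to 3 and 10.85 to 11.11 on the 2-week ones. None of 8 exocyst genes passed, Exoc3 having the lowest p at 0.46 ± 0.20. The limma adjusted p of the genes named as risen or fallen lay between 0.0137 and 0.0393.

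**Figure D4:**
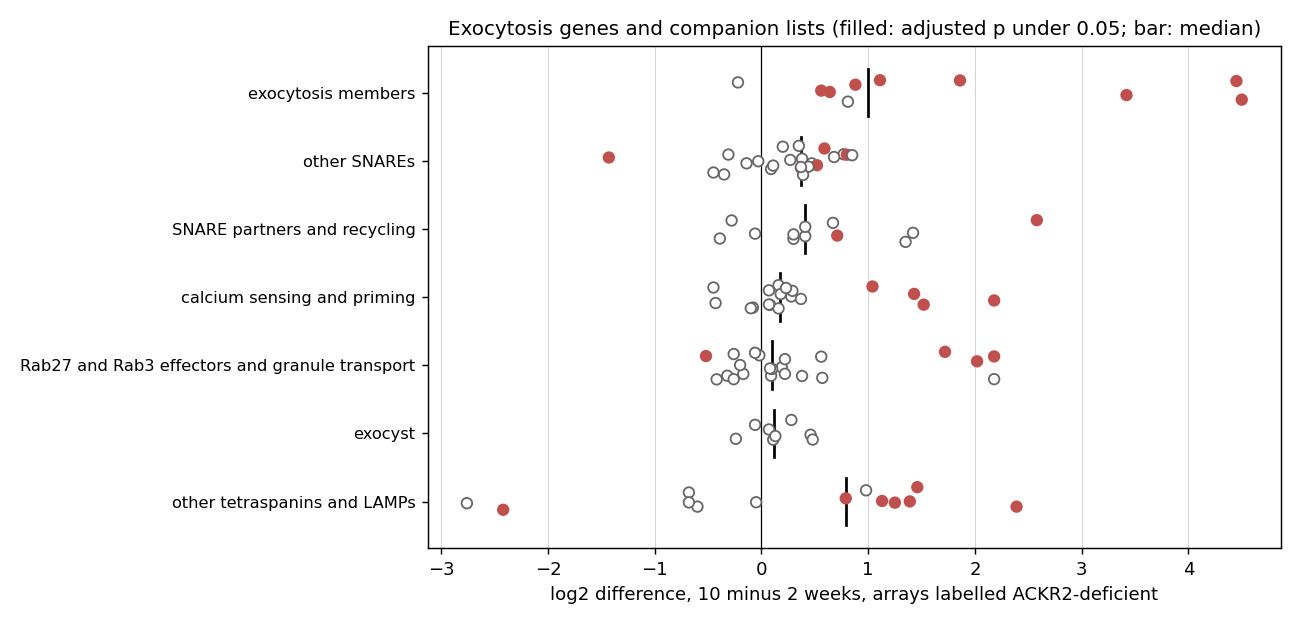
Log2 difference of 10-week over 2-week ACKR2-deficient arrays (horizontal axis) for the 10 exocytosis members and 6 companion lists, 1 point per gene. Filled points passed an adjusted p of 0.05 and vertical bars are medians, which run from 0.10 for the Rab27 and Rab3 effectors to 0.79 for the tetraspanins and LAMPs among the companion lists, with the members at 0.99.

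No companion gene passed in the other 4 comparisons. At 10 weeks between genotypes the lowest p in each list belonged to Stx17 (0.45 ± 0.13), Cd81 (-2.80 ± 0.96), Vps33a (0.35 ± 0.13), Syt9 (0.79 ± 0.30), Chm (0.47 ± 0.19) and Exoc7 (0.22 ± 0.10), with limma adjusted p values between 0.503 and 0.632. All 8 exocyst genes were above 0, with a median of 0.24, and so were 11 of 12 SNARE partners, with a median of 0.29. Over the companion lists 57 of 96 genes were above 0, beside 51.6% of all genes. Cd81 read 12.27, 7.75 and 8.23 on ACKR2-deficient 10-week arrays 1 to 3 and 11.79 to 12.70 in wild type. Syt9 read 7.48, 8.83 and 8.47 against 7.17 to 7.74. For both genes ACKR2-deficient array 1 lay within the wild type range. At 2 weeks the lowest p values were those of Cd9 (-1.68 ± 0.43), Stx11 (-0.78 ± 0.21), Rab37 (-1.54 ± 0.44), Stxbp5 (-1.84 ± 0.55), Cadps2 (-0.92 ± 0.29) and Exoc3 (-0.37 ± 0.20). Between weeks in wild type they were those of Stx4a (0.41 ± 0.14), Chm (-0.47 ± 0.19), Vps33b (-0.62 ± 0.26), Cd53 (-0.21 ± 0.10), Exoc2 (-0.19 ± 0.11) and Syt7 (0.17 ± 0.12). For the interaction they were those of Napb (0.86 ± 0.21), Cd151 (1.07 ± 0.33), Cadps2 (1.14 ± 0.41), Rab37 (1.66 ± 0.62), Stx12 (0.95 ± 0.40) and Exoc5 (0.51 ± 0.27).

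The genes most like the 3 widest-ranging members were found from the root mean square difference of values centred on each gene's own mean, over 12 arrays. Nearest to Rab27b were P2rx1, an ATP-gated channel (0.14), Mamdc2 (0.15) and Rab44, a large Rab GTPase (0.17). Nearest to Cd63 were Aqp9, a water and glycerol channel (0.22), Ptger3, a prostaglandin E2 receptor (0.22), and Vwa5a (0.24). Nearest to Stx3 were Mrgpra1, a Mas-related receptor (0.15), Marchf8, a ubiquitin ligase (0.16), and 5730460C07Rik (0.16). These 9 genes span between 3.59 and 5.21 log2 units over the arrays and share with the members the same low 4 arrays, so the likeness describes these 12 arrays only.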

How the data were processed

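Total RNA (250 ng per sample) was hybridised to 12 single-colour arrays. Per the submitters' processing notes, the authors normalized the arrays by RMA (Partek 6.5). The deposited values were taken as log2 because they ran from 2.66 to 14.91, with array medians of 7.76 to 7.90. They carry no detection call or scan batch, and the probe sets' genome build is not given in the sources used here. Of 35399 probe sets, 21789 had 1 gene symbol, 1621 had several and 11989 were unnamed here. The probe set with the highest mean was kept, leaving 19938 genes. The number of arrays limits the precision.

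Group means and their contrasts were estimated by limma 3.58.1 (R 4.3.3) from the 12 arrays together, with 8 residual and 2.39 prior degrees of freedom. The code was first tested on simulated data. These took their spread from the 10-week groups, so the wide spread of the wild type 2-week group was not simulated. Named are the 10 members, up to 3 called genes per direction and companion list, or else the gene of lowest p, the nearest genes, defining markers and Ackr2. The members, lists and tests were chosen with earlier results of these data known. Same-numbered arrays deviated together only between wild type at 2 and 10 weeks (correlations across genes 0.166 to 0.359 for 3 pairs, -0.308 to 0.062 for the other 15). Differently numbered arrays of different groups reached 0.287, however. Wild type array 3 read 5.77 for Xist at 2 weeks and 13.11 at 10 weeks. The check thus does not settle whether the numbers pair arrays. Blocked counts between weeks in wild type stayed at 0.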

Additional observations from a re-analysis of the deposited data

How the results depend on the processing

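With array weights, whose estimation limma stopped short of convergence, 9197 genes and 9 members were called at 2 weeks, 9550 genes between weeks in ACKR2-deficient arrays, and 4136 genes and 9 members for the interaction. Leaving out 1 array at a time gave 0 to 4738 genes and 0 to 9 members at 2 weeks, 0 to 129 genes and no member at 10 weeks, 0 to 4994 genes and 0 to 9 members between weeks in ACKR2-deficient arrays, and 0 to 3138 genes and 0 to 9 members for the interaction. The replicate block over all arrays gave 2897 genes and 8 members between weeks in ACKR2-deficient arrays, and with only those groups 4019 and 9. The block changed no other count of calls.

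Signs turned for small differences. Array weights gave 0.15 for Rab27a at 2 weeks, 0.06, 0.18 and -0.00064 for Vamp7, Vamp3 and Rab27b at 10 weeks, -0.11, -0.57, -0.17 and -0.048 for Vamp7, Snap23, Stxbp2 and Rab27b between weeks in wild type, and -0.32 for the interaction of Rab27a. Median centring gave 0.028 and 0.073 for Vamp7 and Vamp3 at 10 weeks. Quantile normalization gave -0.035 and -0.026 for Rab27b and Unc13d at 10 weeks, 0.0032 for Vamp3 between weeks in wild type and -0.058 for the interaction of Rab27a. Without the 4 arrays that go against their labels, Vamp7, Snap23, Stxbp2, Rab27b and Unc13d were -0.096, -0.56, -0.067, -0.23 and -0.036 between weeks in wild type. With 1 array left out, Rab27a ranged from -0.47 to 0.056 at 2 weeks and from -0.30 to 0.22 for the interaction. At 10 weeks the ranges were -0.17 to 0.082 for Vamp7, -0.19 to 0.13 for Vamp3, -0.019 to 0.087 for Unc13d and -0.0076 to 0.094 for Cd63. Between weeks in wild type they were -0.096 to 0.45 for Vamp7, -0.60 to 0.23 for Vamp3, -0.56 to 0.45 for Snap23, -0.067 to 0.24 for Stxbp2, -0.23 to 2.17 for Rab27b and -0.036 to 0.19 for Unc13d. The cause was not tested. No sign of a member turned between weeks in ACKR2-deficient arrays under any alternative run.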
